A study of Mus musculus with 2 samples.

Results

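Of the 7495 cells in a single droplet library of the wild-type mouse colon, 343 (4.58%, 95% confidence interval 4.11% to 5.07%) were non-dividing absorptive cells in which the value of Cyp2c55 exceeded that of Saa1. Cells were gated on Epcam of at least 5, Guca2a of at least 10, Muc2 below 20, Chgb below 20 and a sum below 5 for the cell cycle genes Mki67, Birc5, Ube2c and Ccna2, and were then split on Cyp2c55 and Saa1. The members were therefore chosen on the measured values of these 10 genes in the same library, and the values of those genes are given as a description. The gate before the split held 532 of the 3008 cells with Epcam of at least 5. Of these, 64.5% (60.2% to 68.5%) had Cyp2c55 above Saa1, 139 (26.1%) had Saa1 above Cyp2c55 and 50 had equal values, 44 of which had both at 0. The 139 cells are called Saa1-higher cells here. The 2476 epithelial cells outside the gate were the other reference, and 1353 of them failed only the Guca2a limit.

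The library was made from colon tissue of 3 female C57BL/6 mice aged 8 to 12 weeks with no genetic change or treatment. The other library of the study holds mesenchymal cells sorted on a reporter. Sorted EpCAM-positive and EpCAM-negative cells, both depleted of CD45-positive cells, were mixed 1 to 1 and run with the V3 kit. Shares of the library are therefore not shares of the tissue. The mice were pooled and no label assigns a cell to a mouse, so there is no replicate, no test was run, and differences between mice cannot be told apart from differences between cell classes. A gene is called higher or lower where the means of 2 classes differed 2-fold or more, and intervals of shares are exact Clopper-Pearson 95% intervals that cover counting of cells only. Intervals of ratios treat corrected counts as if they were counts, and leave out the spread between cells and mice. Values are corrected counts, which are counts of transcript molecules adjusted by the authors to a common depth per cell. They summed to 7408 to 10740 per cell in the 343 cells (median 9689), with a median of 2916 genes and 12.8% of the corrected counts from mitochondrial genes. The Saa1-higher cells were close to this, with medians of 9710, 2835 genes and 13.8%, and the epithelial cells outside the gate had medians of 9633, 3206 genes and 8.86%. The part of this difference in mitochondrial share in the comparisons with cells outside the gate was not tested. Only 1 of 7495 cell barcodes also occurred in the other library of the series.

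Colonocytes are the absorptive cells of the large bowel. They arise from dividing cells in the crypt, take up sodium, water and short-chain fatty acids as they move toward the surface, and are lost into the lumen. Cyp2c55 encodes a cytochrome P450 that oxidizes fatty acids and foreign compounds, Saa1 an acute phase protein that binds lipids such as retinol, and Guca2a the peptide guanylin, which acts on guanylate cyclase C to set salt and water secretion. The colon differs along its length, and transcription factors of the Hox, Cdx and Satb families are known for regional expression in it.

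The sequences just before the start sites of the 2 genes that split the gate, and of Slc51a, a bile acid transporter gene that divided the 343 cells further, are shown as the regulatory context of these measurements. Each is the 250 bases before the RefSeq start site on GRCm38.p6, written 5′ to 3′ on the strand of the gene, with capitals for the motifs that were searched on both strands. A TATA box was searched for as the letters TATAAA. The site of CDX factors was searched for as CATAAA, which differs from the former by 1 base. The core of the nuclear receptor HNF4 was searched for as CAAAGTC, and an NF-kB motif of 10 bases was searched for too.
Cyp2c55, chr19:39006769-39007018, plus strand: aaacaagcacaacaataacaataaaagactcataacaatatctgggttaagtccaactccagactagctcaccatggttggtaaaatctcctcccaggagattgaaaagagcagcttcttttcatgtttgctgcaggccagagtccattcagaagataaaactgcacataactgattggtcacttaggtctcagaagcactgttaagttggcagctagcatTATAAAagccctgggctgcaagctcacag
Saa1, chr7:46742981-46743230, minus strand: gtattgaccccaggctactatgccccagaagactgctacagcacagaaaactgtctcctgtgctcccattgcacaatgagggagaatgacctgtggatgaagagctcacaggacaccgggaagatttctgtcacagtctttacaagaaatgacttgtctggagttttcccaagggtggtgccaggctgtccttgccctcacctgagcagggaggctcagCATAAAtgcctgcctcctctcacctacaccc
Slc51a, chr16:32487880-32488129, minus strand: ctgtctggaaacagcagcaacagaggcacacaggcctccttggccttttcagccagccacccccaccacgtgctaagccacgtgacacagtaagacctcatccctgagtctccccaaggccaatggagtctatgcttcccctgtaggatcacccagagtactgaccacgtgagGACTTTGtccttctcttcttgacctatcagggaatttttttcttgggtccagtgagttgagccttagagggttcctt
The window of Cyp2c55 held 1 TATAAA that began 29 bases before the start site, and the window of Saa1 held 1 CATAAA that began 31 bases before it. The window of Slc51a held 1 match of the HNF4 motif, on the opposite strand, from 77 bases before the start site. Among 32851 promoter windows of the same length, 12.4% held TATAAA, 10.8% CATAAA, 3.84% the HNF4 motif and 1.41% the NF-kB motif. These matches describe letters and not binding.

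In the 343 cells, Cyp2c55 ranged from 1 to 97 corrected counts per cell (5th percentile 2, median 18, 95th percentile 65), and Saa1 from 0 to 45 with a median of 0. Saa1 was above 0 in 37.6% of them (32.5% to 43.0%), so more than 1 cell in 3 held transcripts of both genes. In the Saa1-higher cells the order was the reverse by the rule, with Saa1 from 1 to 495 (median 30). Cyp2c55 ranged from 0 to 69 there (median 3) and was above 0 in 76.3%. The plot of both genes in the gate shows a spread of cells on each side of the line of equal values, with 50 on it. Near the line, 36 cells had Cyp2c55 above Saa1 by 1 to 3, and 27 had Saa1 above Cyp2c55 by 1 to 3. The values of Saa1 and of its relative Saa2 are uncertain, since 17.0% of the 90-base windows in the last 500 bases of the Saa1 transcript were identical in Saa2. No such window was shared by Cyp2c55 and Cyp2c65, or by Reg3b and Reg3g.

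**Figure D1:**
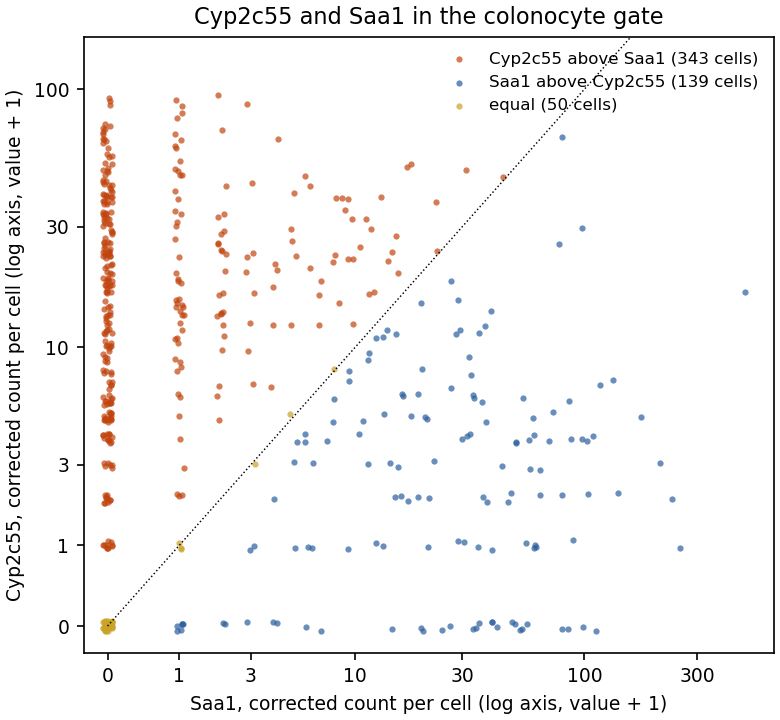
Corrected counts of Saa1 (x axis) and Cyp2c55 (y axis) in the 532 cells of the gate, both on log axes after adding 1, with a small random shift to separate points. Each point is a cell, the dotted line marks equal values, and the 343 cells above it (orange) have a median Cyp2c55 of 18 and a median Saa1 of 0.

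Measured against marker genes, the cells carried the transcripts of absorptive colonocytes, as did the Saa1-higher cells. Of the 29 mature colonocyte genes, 25 were compared (mean of at least 0.5 in either class), and 22 of these were 2-fold or more higher than in the epithelial cells outside the gate while none was lower. The median log2 ratio of the list was 2.36. Over all 3158 genes compared the median was 0.02, with 17.7% of genes 2-fold or more higher and 20.6% lower. The Guca2a limit favours the result for the list, since 2200 of the 2476 cells outside the gate (88.9%) had Guca2a below 10. Keratin 20 (Krt20), a marker of the differentiated surface epithelium, averaged 8.57 against 0.49, the chloride-bicarbonate exchanger gene Slc26a3 averaged 4.32 against 0.34, and Alpi, the intestinal alkaline phosphatase, averaged 0.27 against 0.004. Epcam itself ranged from 5 to 56 (median 28). The 3 genes of the list that were compared and not past 2-fold were Slc20a1, Tspan1 and Guca2b, the last of which averaged 0.595 against 0.873. Relative to the Saa1-higher cells, 5 of 25 genes of the list were higher and 4 lower, with a median log2 ratio of -0.30. Over all genes in that comparison 7.82% were higher and 6.55% lower. The summed list averaged 325 in the 343 cells and 419 in the Saa1-higher cells.

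Markers of other cell types ranged from absent to present in part of the cells. Of the 10 immune markers, 6 were at 0 in all 343 cells, among them Ptprc, Cd3e and Lyz2, and the summed list ranged from 0 to 1. Tuft cell markers summed to 0 to 2, with Pou2f3 at 0, and enteroendocrine markers to 0 to 12. Crypt base and progenitor genes had a median sum of 4, with 34 cells at 10 or more, Lgr5 at a mean of 0.006 and Notum at 0. Goblet markers had a median sum of 4 and a highest sum of 502, with 72 of the 343 cells at 10 or more. The 12 fibroblast and muscle markers were all detected, with a median sum of 0, a highest sum of 183 and 23 cells at 10 or more. Haemoglobin and other red blood cell transcripts had a median of 0 and a highest sum of 1093, with 3 cells at 10 or more, and endothelial markers reached 10 in 7 cells. Scrublet called 9 of the 343 cells doublets (2.62%), against 3.36% of the whole library. The share was 6.47% in the Saa1-higher cells and 4.77% in the epithelial cells outside the gate.

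The 5 marker genes given with this population were all higher than in both references, and they differed widely in how many of the 343 cells carried them. Car1 and Sptssb were broad, whereas Slc51a and Reg3b were found in a minority. These values are part of the description that led to the choice of the population and do not support it.

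Car1 (chr3:14766216-14808368, minus strand, GRCm38), a cytosolic carbonic anhydrase, had a mean of 164 corrected counts per cell (0 to 1131, median 81) and was above 0 in 97.7% of the cells (95.5% to 99.0%). It averaged 25.3 (0 to 212, median 12) in the Saa1-higher cells and 4.73 in the epithelial cells outside the gate. Its share above 0 outside the gate, 35.1%, was no higher than the 35.9% among the 4487 cells with Epcam below 5, which have a median of 2522 genes. The mean of Car1 in those cells was 0.723, below the 4.73 outside the gate, so the share and the mean do not give the same order.

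Sptssb (chr3:69819542-69859940, minus strand), a small subunit of serine palmitoyltransferase, the enzyme that starts sphingolipid synthesis, averaged 5.01 (0 to 25, median 3) and was above 0 in 82.5% of the 343 cells. It averaged 0.81 in the Saa1-higher cells, with 24.5% above 0. Outside the gate it averaged 0.046, with 2.26% above 0, which made it the gene with the largest ratio over those cells (log2 6.48). Among cells with Epcam below 5 the share was 0.669%. After thinning every cell to 5000 corrected counts the 3 shares were 69.1%, 16.5% and 1.41%, in the same order.

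Slc51a (chr16:32474504-32487879, minus strand) encodes the alpha subunit of the basolateral transporter that passes bile acids to the blood, and Slc51b its beta subunit. Slc51a averaged 1.37 (0 to 21, median 0) and was above 0 in 133 of the 343 cells (38.8%, 33.6% to 44.2%). In the Saa1-higher cells it summed to 3 corrected counts over 139 cells, in 3 cells with 1 each, a ratio of means of 63.5 with a counting interval of 21.6 to 309. Slc51b was broader, with a mean of 2.33 and 79.3% above 0 in the 343 cells against 1.30 and 64.7% in the Saa1-higher cells. The ratio of means for Slc51b was 1.79, so the 2 subunits differed in how unequal they were between the classes.

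Reg3b (chr6:78370657-78373466, plus strand), a secreted lectin of the intestinal defence against bacteria, was above 0 in 70 of the 343 cells (20.4%, 16.3% to 25.1%) and reached 483 corrected counts in a cell, with a 95th percentile of 84 and a median of 0. Its mean of 12.2 rests on that minority. The Saa1-higher cells had 4 cells with a value of 1 each. Outside the gate the mean was 0.78 with a highest value of 238, and 8.36% of cells were above 0, compared with 2.21% of the cells with Epcam below 5. Its relative Reg3g had a mean of 2.01 and a highest value of 61 in the 343 cells.

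**Figure D2:**
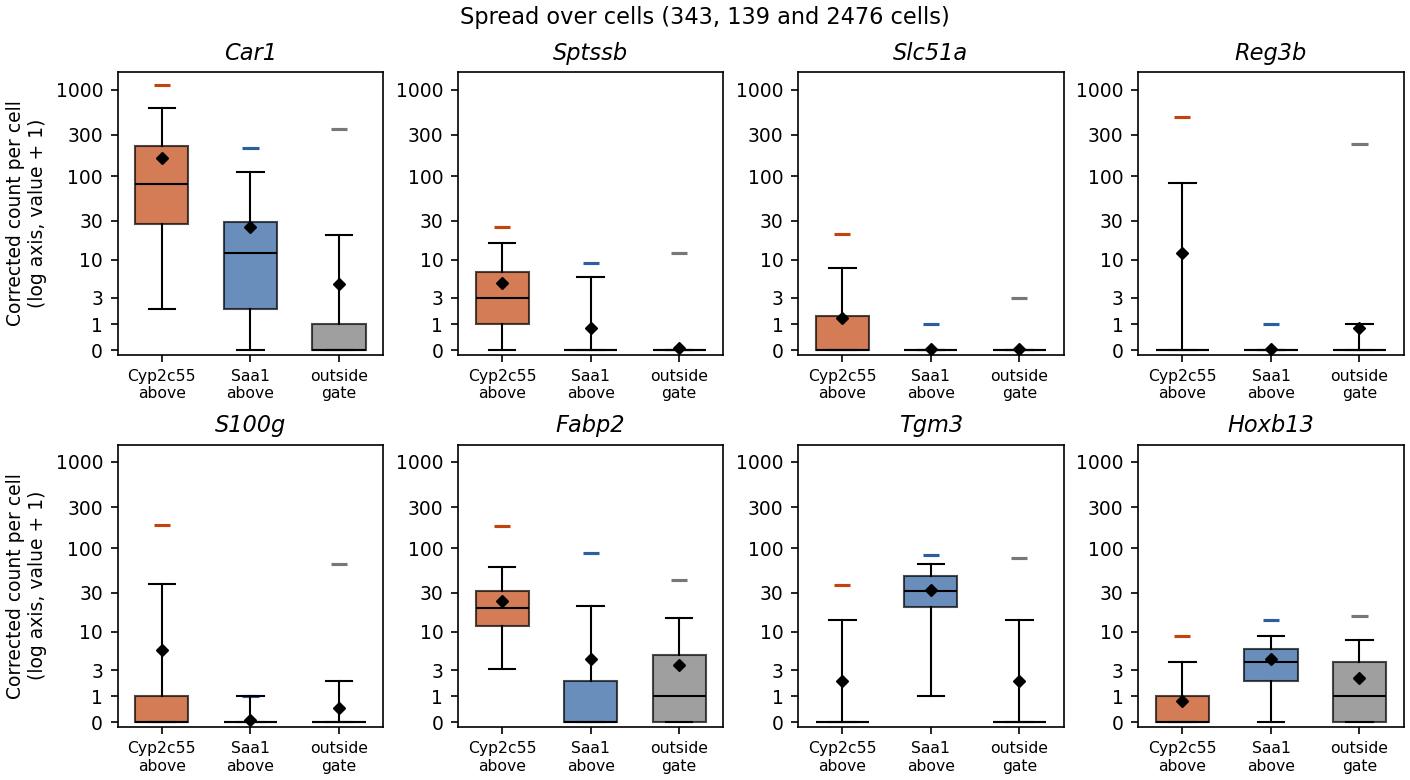
Corrected counts per cell of 8 genes (log axes, value plus 1) in the 343 cells with Cyp2c55 above Saa1 (orange), the 139 Saa1-higher cells (blue) and the 2476 epithelial cells outside the gate (grey). Boxes span the 25th to 75th percentile with the median as a line, whiskers the 5th to 95th percentile, diamonds mark means and dashes the highest cell. Car1 and Fabp2 have higher medians in the 343 cells than in the Saa1-higher cells, with overlapping ranges. Reg3b, Slc51a and S100g stay at a median of 0 in every class.

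Compared with the Saa1-higher cells, 215 of 2748 genes were 2-fold or more higher in the 343 cells (7.82%) and 180 were lower (6.55%), with a median log2 ratio of 0.05. Cyp2c55 is among the former and Saa1 among the latter by the rule. The largest ratios included those of Reg3b, S100g, Reg3g, Ces1g, Slc51a, Prkg2, Rnf186, Defb37, Acsf2, Ugt2b5 and B4galnt1. Most of them were at a median of 0 in both classes and were carried by part of the cells.

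S100g, the calcium-binding protein calbindin-D9k of calcium absorption, averaged 5.90 (0 to 185) and was above 0 in 29.4% of the 343 cells (24.7% to 34.6%). In the Saa1-higher cells 8 of 139 held a value of 1.

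Ces1g, a carboxylesterase of lipid metabolism, had a mean of 1.27 and was above 0 in 37.6% of the 343 cells. The Saa1-higher cells held 2 corrected counts of it in all, which gives a ratio of 88.5 with a counting interval of 24.4 to 733. For Defb37, a beta-defensin, the ratio was 28.2 (9.53 to 138) from 3 corrected counts. Prkg2, the cyclic GMP-dependent kinase that acts below guanylate cyclase C, was above 0 in 49.6% of the 343 cells against 1.44%, and its ratio was 67.5 (18.5 to 559) from 2 corrected counts. Rnf186, an E3 ubiquitin ligase, had a ratio of 30.8 (10.4 to 150) from 3 corrected counts, with a mean of 0.665 in the 343 cells but 1.16 outside the gate.

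**Figure D3:**
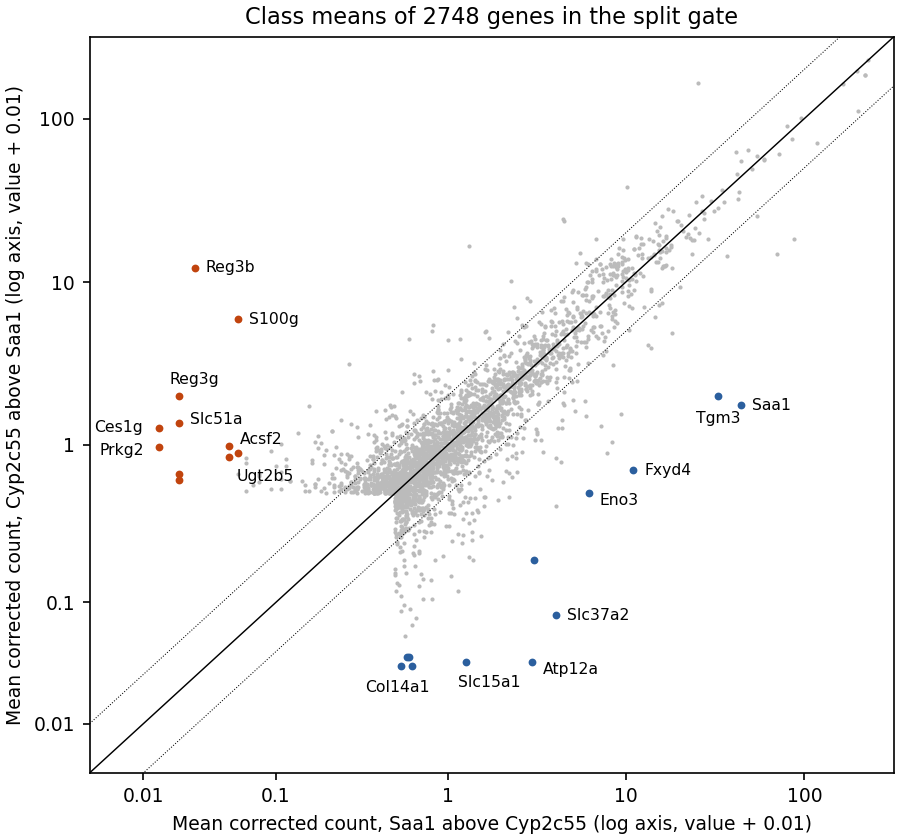
Mean corrected count per cell of the 2748 compared genes in the Saa1-higher cells (x axis) and in the 343 cells (y axis), on log axes after adding 0.01. The solid line marks equal means and the dotted lines 2-fold. Orange and blue points are genes among the 12 largest ratios in each direction that are named in the text, and Reg3b lies farthest from the line, at 12.2 against 0.029.

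The genes farthest in the other direction were Atp12a, Slc37a2, Slc15a1, Saa1, Tgm3, Fxyd4, Ly6g, C3, Col14a1, Pi16, Eno3 and Mfap5. Tgm3, a transglutaminase of epithelial barriers, averaged 2.01 (0 to 37, median 0) in the 343 cells and 32.8 (median 32, highest 83) in the Saa1-higher cells, with 23.9% against 96.4% above 0. Atp12a, the potassium-absorbing proton pump of the colon, was above 0 in 1.46% of the 343 cells and 63.3% of the Saa1-higher cells. Fxyd4, a regulator of the sodium pump, followed with 4.08% against 64.0%, the peptide transporter gene Slc15a1 with 2.62% against 64.7%, and the sugar phosphate exchanger gene Slc37a2 with 4.66% against 78.4%. Outside the gate Slc15a1 was above 0 in 4.48% of cells, Atp12a in 6.02% and Slc37a2 in 7.23%.

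Of the 12 genes, C3, Col14a1, Pi16 and Mfap5 are typical of fibroblasts. The summed fibroblast and muscle markers moved with them, with a mean of 3.66 per cell (0 to 183) in the 343 cells, 14.6 (0 to 272) in the Saa1-higher cells and 11.7 outside the gate, and all 9 markers compared were lower in the 343 cells. In the 320 and 119 cells with a marker sum below 10, the means of C3 were 0.0063 and 0, and those of Col14a1 were 0 and 0. Pi16 and Mfap5 then averaged 0.0031 each in the former and 0 in the latter, so these 4 genes were no longer lower in the 343 cells. In the same cells the log2 ratios were 8.17 for Reg3b, 2.67 for Car1, -2.57 for Hoxb13 and -4.16 for Tgm3, with the direction they had in all cells.

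Genes for the handling of foreign compounds and lipids were counted by family, against 7.82% of all genes higher and 6.55% lower than in the Saa1-higher cells. Of the 33 cytochrome P450 and other phase I genes compared, 11 were higher than in the Saa1-higher cells and 7 lower. Relative to cells outside the gate 18 of 30 were higher and 3 lower, against 17.7% and 20.6% of all genes. Cyp2c55, on which the cells were chosen, is on this list and counts as higher in both comparisons. Cyp2c65, another P450 gene of the same subfamily, averaged 3.16 against 0.27 (log2 3.48), and the aldo-keto reductase gene Akr1c19 averaged 4.39 against 1.01. Cyp2d34 ran the other way, with 0.42 against 4.04, as did Adh1 with 0.42 against 1.60 and Aldh2 with 5.11 against 10.4.

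Of 23 conjugation and export genes compared, 10 were higher in the 343 cells and none lower, with a median log2 ratio of 0.65. Of all genes 7.82% were higher and 6.55% lower than in the Saa1-higher cells. The sulfotransferase gene Sult1a1 averaged 5.45 against 0.82, and Ugt2b5, a glucuronosyltransferase, 0.85 against 0.050. The abundant glutathione transferase gene Mgst3 did not differ past 2-fold, at 27.2 and 26.6. Relative to epithelial cells outside the gate, 14 of 27 of these genes were higher and 2 lower, against 17.7% and 20.6% of all genes.

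Of 17 bile acid and sterol genes compared, 3 were higher than in the Saa1-higher cells and none was lower, against 7.82% and 6.55% of all genes. They were Slc51a, itself one of the given markers, Fabp2 and Idi1. Fabp2, the intestinal fatty acid binding protein, averaged 24.2 (0 to 183, median 20) against 4.43 (median 0). Nr1h4, which encodes the bile acid receptor FXR, averaged 1.07 against 0.54 (log2 0.98). Among the 15 sphingolipid genes compared, Sptssb, itself one of the given markers, and B4galnt1, a ganglioside synthase, were higher and none was lower, while Sptlc2, a catalytic subunit of the enzyme that Sptssb belongs to, was above 0 in 80.5% and 80.6% of cells.

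Of 27 genes of short-chain fatty acid use and ketone metabolism compared, 6 were higher and 2 lower, against 7.82% and 6.55% of all genes. The count of lower genes is near the share of all genes. Acads, a dehydrogenase of short-chain fatty acids, averaged 4.92 against 2.19, and Acsf2, an acyl-CoA synthetase, 0.99 against 0.050. The lower genes were Slc25a20, the carnitine carrier of mitochondria, at 1.27 against 2.68, and Oxct1, which takes up ketone bodies for oxidation, at 0.68 against 2.46. Mitochondrially encoded genes were level, with 0 of 12 past 2-fold in either direction.

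Ion and water transport split evenly, with 6 of 31 genes higher and 6 lower than in the Saa1-higher cells. The shares of all genes were 7.82% and 6.55%. Aqp4, a water channel, averaged 10.2 (0 to 47, median 6) against 2.27, whereas Aqp8, another water channel, averaged 0.90 (0 to 22, median 0) against 7.88 (0 to 69, median 4). The 2 carbonic anhydrases Car1 and Car4 were likewise opposed, and Car4, the membrane-bound form, averaged 1.56 against 9.37. Car1 is itself one of the given markers and counts among the higher genes. Slc9a3, the apical sodium-proton exchanger NHE3, was similar in both classes at 0.97 and 0.73, and far below in epithelial cells outside the gate at 0.017.

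Antimicrobial and acute phase genes were 4 higher and 4 lower among 20 compared, against 7.82% and 6.55% of all genes. Saa1 was lower by the rule. The higher genes were Reg3b, itself one of the given markers, Reg3g, Defb37 and Lgals9. The lower ones were Saa1, Il18, Tnfaip3 and Cxcl16. Cxcl16 turned direction (log2 0.15) with cells at or above 10% mitochondrial left out. Such cells made up 124 of the 139 Saa1-higher cells. Il18, an epithelial cytokine, averaged 3.08 against 8.53. Lypd8, which keeps flagellated bacteria from the colonic epithelium, was high in both at 111 and 200.

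Of 17 antigen presentation and interferon response genes, 6 were higher than in the Saa1-higher cells and none lower, with a median log2 ratio of 0.65. All genes compared had shares of 7.82% and 6.55% and a median of 0.05. The higher genes included H2-T3, Irf7, Irf8, Isg15 and Ifit1. Isg15, a ubiquitin-like protein induced by interferon, averaged 2.47 (0 to 78, median 0) against 0.698. Its share above 0 was 40.2% in the 343 cells and 13.7% in the Saa1-higher cells, and the latter lay below the 24.0% of cells with Epcam below 5. Irf7, a transcription factor of the same response, averaged 2.90 against 1.01. H2-T3, a nonclassical MHC class I gene, averaged 0.813 against 0.115 and was above 0 in 0.312% of the cells with Epcam below 5.

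Red blood cell transcripts lay apart from this, with 4 of 4 genes compared higher through few cells. Hbb-bs was above 0 in 7.87% of the 343 cells and 10.8% of the Saa1-higher cells. With the 3 and 1 cells of highest haemoglobin left out, its means were 0.0765 and 0.116. Among genes of nuclear receptors and of the response to foreign compounds, 3 of 16 were higher and Nr1d1 was lower. The shares of all genes were 7.82% and 6.55%. Pparg, a fatty acid-sensing receptor of colonocytes, averaged 2.15 against 0.842 and outside the gate 0.424. The other higher genes were Nr3c1 and Nfe2l2, and Nfe2l2 does not encode a nuclear receptor.

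Transcription factor genes tied to position along the bowel differed between the classes (plot of position-related factors). Cdx2, a regulator of intestinal identity, averaged 2.11 against 0.55 (log2 1.93) and was above 0 in 79.9% of the 343 cells (75.2% to 84.0%) against 35.3% (27.3% to 43.8%). Hoxb9 averaged 0.56 against 0.15, and Osr2 0.66 against 0.058. Hoxb13, the most 5′ gene of its cluster and known from the distal colon, averaged 0.78 (0 to 9, median 0) against 4.32 (0 to 14, median 4), and was above 0 in 31.8% against 88.5%. Of 7 genes of the list compared, these 3 were higher and Hoxb13 was lower, against 7.82% and 6.55% of all genes.

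Hoxb6 and Hoxd13 were below the level for comparison of means. Hoxb6 was above 0 in 21.0% of the 343 cells and 1.44% of the Saa1-higher cells, and Hoxd13 in 2.04% and 23.0%. Isx, an intestinal homeobox gene that limits provitamin A uptake, was above 0 in 48.4% against 9.35%. It was 1 of 3 among 30 transcription factor genes of absorptive cells that were higher, beside Cdx2 and Nfe2l2. Hif1a was the lower one, at 1.07 against 3.34. The count of higher genes is near the share of all genes, 7.82%, and 6.55% of all genes were lower. Relative to the epithelial cells outside the gate, Osr2 was higher (log2 1.33), Hoxb13 was lower (mean 0.781 against 2.23), and Hoxb9 was level at a log2 ratio of -0.09. After thinning, the shares for Hoxb13 were 23.0%, 80.6% and 45.9% in the 343 cells, the Saa1-higher cells and outside the gate.

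**Figure D4:**
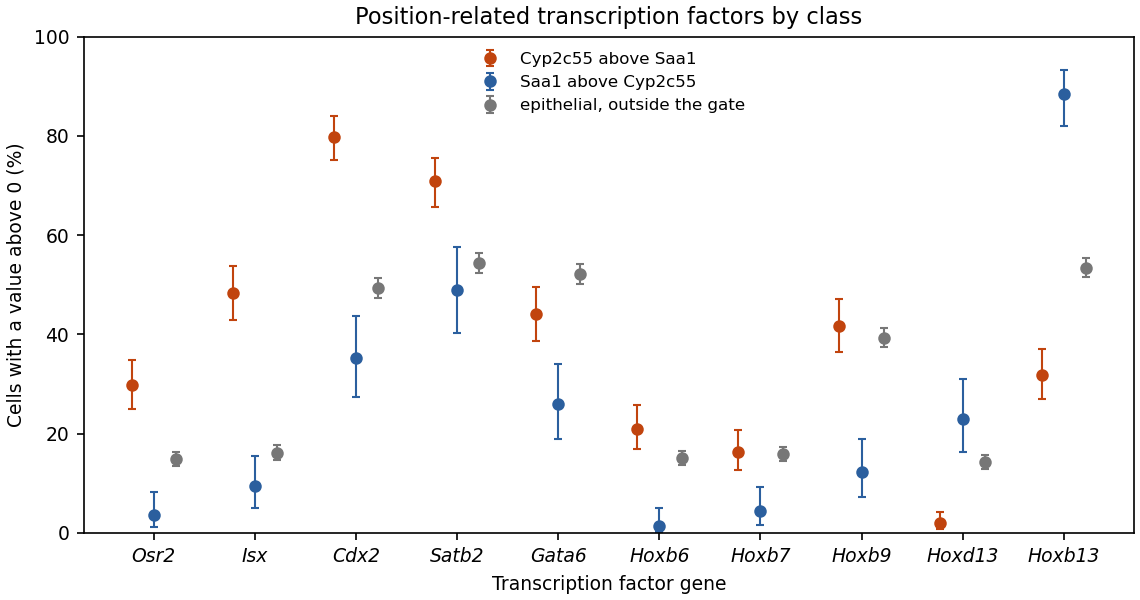
Percentage of cells with a value above 0 (y axis) for 10 transcription factor genes (x axis) in the 343 cells (orange), the Saa1-higher cells (blue) and epithelial cells outside the gate (grey), with exact 95% intervals that cover counting of cells only. Hoxb13 stands at 31.8%, 88.5% and 53.5%, and Cdx2 at 79.9%, 35.3% and 49.4%.

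Compared with the epithelial cells outside the gate, 559 genes of 3158 were 2-fold or more higher (17.7%) and 652 lower (20.6%). Those cells included 753 with Muc2 of at least 20, 65 with Chgb of at least 20 and 361 above the cell cycle limit, so that goblet, enteroendocrine and dividing cells entered the reference. All 16 goblet and all 8 enteroendocrine genes compared were lower in the 343 cells, which the limits on Muc2 and Chgb favour. The largest ratios were those of Sptssb, Cyp2c55, 1810065E05Rik, Slc9a3, Car1, Tmigd1, Dpep1, Slc51a, 2010109I03Rik, Apol10a, Mal and Slc51b. Dpep1, a membrane dipeptidase, averaged 7.65 against 0.23, and Tmigd1, an adhesion protein of the brush border, 1.61 against 0.039. Against only the 1353 cells that failed the Guca2a limit alone, the log2 ratios of these 12 genes lay between 3.63 (Slc51b) and 7.13 (Sptssb).

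Relative to cells outside the gate, 19 of 26 brush border genes were higher and 2 lower, 10 of 15 solute carrier genes were higher and 1 lower, and 8 of 21 junction genes were higher and 2 lower. Relative to the Saa1-higher cells, 2 of 26 brush border genes were higher and 1 lower, and 1 of 22 junction genes was higher and none lower. Of 17 solute carrier genes 2 were higher and 6 lower, with a median log2 ratio of -0.37. Of all genes 7.82% were higher and 6.55% lower in this comparison, and 17.7% and 20.6% relative to cells outside the gate. Of the secreted ligands, Areg, an EGF family member, averaged 16.8 in the 343 cells, 17.9 in the Saa1-higher cells and 4.47 outside the gate, and adrenomedullin (Adm) 2.28, 1.02 and 0.32. The immediate early gene Fos was not past 2-fold in either comparison, at 8.18, 6.45 and 12.9. The oxidative stress gene Hmox1 was the one gene of its list higher than in the Saa1-higher cells, at 1.75 against 0.16.

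The 343 cells were not uniform. Slc51a and Hoxb13 were each carried by part of them, and rarely together. A value above 0 was found for Slc51a only in 122 cells, for Hoxb13 only in 98, for both in 11 and for neither in 112. Median genes per cell were 2918 with Slc51a only and 2924 with Hoxb13 only, after the correction for depth.

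The cells with Slc51a only averaged 340 for Car1, 40.2 for Cyp2c55 and 6.81 for Sptssb. The cells with Hoxb13 only averaged 40.5, 11.3 and 2.92 for the same genes. Reg3b was above 0 in 40.2% of the former and in 1.02% of the latter, S100g in 60.7% and 7.14%, and Osr2 in 69.7% and 2.04%. In contrast, Prdx6, an antioxidant enzyme, averaged 9.80 and 30.2, Tgm3 0.090 and 5.44, Aqp4 4.01 and 15.4, and Guca2a 41.8 and 74.1. Krt20 was alike, at 7.62 and 8.49. The Saa1-higher cells averaged 87.8 for Prdx6 and 32.8 for Tgm3, above either group.

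Across the 343 cells, Spearman correlations of Cyp2c55 were 0.77 with Car1, 0.71 with Sptssb, 0.64 with Slc51a, 0.21 with Saa1 and -0.43 with Hoxb13. The rule keeps Saa1 below Cyp2c55 in each of these cells. Slc51a correlated at 0.70 with Osr2 and 0.68 with Ces1g, and Guca2a at 0.74 with Krt20. Guca2a and Slc51a had a correlation of -0.35. These cells share 1 library and correction, and the coefficients describe this set of cells only.

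**Figure D5:**
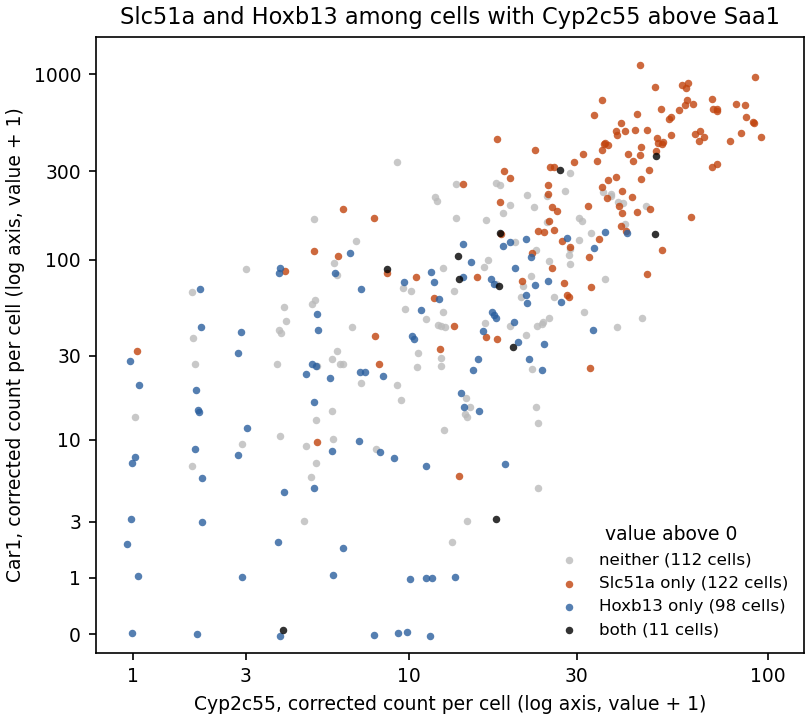
Corrected counts of Cyp2c55 (x axis) and Car1 (y axis) in the 343 cells, on log axes after adding 1 with a small random shift, coloured by whether Slc51a and Hoxb13 were above 0. Cells with Slc51a only (122, orange) lie toward the upper right, with a mean Car1 of 340, and cells with Hoxb13 only (98, blue) have a mean of 40.5.

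When the cells were ordered by their summed mature colonocyte genes and divided in 3 parts of 115, 114 and 114 cells, the sum averaged 169, 308 and 500. Guca2a, which is not in that list, averaged 29.1, 59.4 and 99.4 in the low, middle and high part, and Cyp2c55 14.2, 23.7 and 32.8. The cytosolic ribosomal protein genes went the other way, at 1298, 866 and 492 corrected counts per cell, as did Sult1a1 (8.55, 5.54 and 2.23) and S100g (8.83, 5.92 and 2.92). Sptssb averaged 1.51, 4.28 and 9.27. Hoxb13, at 0.65, 1.09 and 0.61, did not follow this order, nor did Reg3b at 15.5, 7.12 and 13.9. Totals per cell were 9435, 9617 and 9806.

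At the split, the 36 cells with Cyp2c55 above Saa1 by 1 to 3 averaged 26.3 for Prdx6, 5.89 for Tgm3 and 31.6 for Car1. The 27 cells with Saa1 above by 1 to 3 averaged 52.9, 21.7 and 24.9, and the 50 cells with equal values 18.9, 5.16 and 12.5. Guca2a averaged 38.7, 53.3 and 18.6 in these groups. At the Guca2a limit, the 25 cells at 10 to 12 averaged 125 for Car1 and 1.24 for Sptssb, and the 14 cells at 7 to 9, with the other limits met and Cyp2c55 above Saa1, averaged 37.4 and 0.071. Few cells lay at the other limits, with 4 at Epcam 5 to 7 and 1 at 2 to 4, 4 at Muc2 10 to 19 and 2 at 20 to 30, 3 at cell cycle sums of 3 to 4 and 2 at 5 to 7, and none at Chgb of 10 or more.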

How the data were processed

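One droplet library of wild-type mouse colon was used. Per the submitters' processing notes and the methods, reads were counted with Cell Ranger on mm10 and corrected with SCTransform in Seurat 3.1 under R 3.6.2. The authors deposited whole-number corrected counts, treated here as a score because they are not raw counts, and natural log values, which equal ln(1 + corrected count). The correction brings cells to a common depth, so raw depth per cell is unknown. The 7495 deposited cells are more than the paper's final set, which it limited to cells under 25% mitochondrial. By corrected counts, 8 of the 343 cells were at or above 25%. Of the other library only cell barcodes were read.

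Class means per cell were compared for genes with a mean of at least 0.5 in either class, as log2 ratios after adding 0.01, with higher and lower set at 2-fold. Where a reference class held 1 to 3 corrected counts in all, the ratio has an exact interval computed as for counts, which the corrected values are not, so it is only a rough guide. With 1 library no test was run. The ratio script was tested on simulated data. Cells were also thinned to 5000 corrected counts each, and doublets were called with Scrublet in scanpy 1.11.5 and kept. Its default setting marked 7 cells (0.0934%) and was replaced, after this was seen, by one that log-transforms the values first.

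Named genes were the rule genes, the 5 markers, the 12 largest ratios in each of 3 directions, and up to 8 members of each list with the largest differences of means, with further members where a count was 5 or fewer. Slc26a3, Alpi, Lgr5, Notum, Saa2, Hoxb6, Isx, Prdx6 and the interferon genes H2-T3, Irf8 and Ifit1 were named after their values were seen. Members and lists were chosen with earlier results of these data known. Gene positions are from GENCODE and promoters from RefSeq, both on GRCm38, and 3 of 5 matched promoters are shown. Results for some genes are not reported here.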

Additional observations from a re-analysis of the deposited data

How the results depend on the processing

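Counts of genes past the fold are given in the order higher and lower than in Saa1-higher cells, then higher and lower than in cells outside the gate. They were 637, 593, 864 and 2397 with a mean of at least 0.1, and 50, 66, 220 and 168 with a mean of at least 2. At a fold of 1.5 they were 487, 386, 972 and 1016, and at a fold of 3 they were 93, 88, 269 and 324. After thinning, 113 were higher than in Saa1-higher cells, and 357 and 375 differed from cells outside the gate. With cells at or above 10% mitochondrial left out, 54 of the 343 cells remained, and 403 and 405 genes differed from Saa1-higher cells. That limit also left out 124 of the 139 Saa1-higher cells, so few cells stood behind these counts. The causes were not tested. Other counts stayed within 1.5 times.

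Single log2 ratios also changed sign relative to Saa1-higher cells. An alternative with fibroblast and muscle markers under 10 was chosen after seeing the data. Its log2 ratios were 0.70 for C3, 0.39 for Pi16, 0.39 for Mfap5, -1.14 for Hbb-bs and -1.23 for the red blood cell median. Means of C3, Pi16 and Mfap5 were then 0.0063, 0.0031 and 0.0031 against 0. Their ratios come from the added 0.01 and show no reversal. With red blood cell markers under 10, also added later, Hbb-bs was at -0.54. C3 was at 0.27 without doublets and Cxcl16 at 0.15 under the 10% limit. With Guca2a of at least 5, Hbb-bs was at -0.35 and the red blood cell median at -0.91, and with at least 20 they were at -1.41 and -1.47.

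The comparison with only the cells that failed the Guca2a limit was likewise chosen after seeing the data. No paired analysis was possible because there is 1 library, no map from cells to mice and no test. Depth limits genes at a mean near 0, and background RNA limits shares.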
